A study of Arabidopsis thaliana with 17 samples.

Results

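The 24 nt small interfering RNA (siRNA) clusters that lie in and around the centromeres of chromosomes 2 and 4 of Arabidopsis thaliana were described in flowers of 6 genotypes. A cluster was counted as a member by position alone, between 1100000 and 7200000 on chromosome 2 or between 1500000 and 6300000 on chromosome 4, the latter stretch including the heterochromatic knob of the short arm. By this rule 2791 of the 12939 clusters in the deposited table were members, 1610 on chromosome 2 and 1181 on chromosome 4. No measured value entered the rule. The study asked how a short motif of NRPD1, the largest subunit of RNA polymerase IV (Pol IV), bears on siRNA production. It made 2 biological replicate libraries for each of the 6 genotypes, all from flower tissue, and gave the level of each cluster in each library as a read density scaled to cluster length and library size (RPKM). The genotypes were wild-type Col-0 (Col-0 WT), the T-DNA insertion mutant nrpd1-3 (nrpd1-3 null), the quadruple mutant of clsy1-7, clsy2-1, clsy3-1 and clsy4-1 (clsy quad), and nrpd1-3 plants that carried a 3xFLAG-tagged NRPD1 transgene under the NRPD1 promoter in a wild-type form (NRPD1-3xF WT), with the CYC residues changed to AAA (NRPD1-3xF AAA-YPMF) or with the YPMF residues changed to AAAA (NRPD1-3xF CYC-AAAA). The last 3 genotypes thus share the nrpd1-3 allele with the null, while Col-0 WT and clsy quad carry untagged NRPD1 at its own locus. The word mutants is used for nrpd1-3 null, clsy quad and both motif variants together. The number of transgenic lines behind each pair of libraries is not given in the labels, so an effect of a line or of its insertion site cannot be told apart from that of its NRPD1 form. The flower bud samples of the series were not analysed here.

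Pol IV transcribes transposons and repeats into short RNAs that RDR2 makes double-stranded and DCL3 cuts into 24 nt siRNAs. These siRNAs guide DNA methylation back to matching loci, a pathway known as RNA-directed DNA methylation. The CLASSY (CLSY) proteins resemble chromatin remodellers in their SNF2 domains, associate with Pol IV and are needed for its recruitment. Pericentromeres are the gene-poor, transposon-rich flanks of the centromeres and are packed as heterochromatin. The knob of chromosome 4 is an interstitial block of heterochromatin, and the pericentromere of chromosome 2 holds a large copy of the mitochondrial genome.

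The annotation around the members was that of a gene-poor region. Members stood close together, with a median distance of 2679 bp to the previous cluster, against 7468 bp for the 1530 clusters of the long arms of chromosomes 2 and 4. The named position fell in a RefSeq pseudogene, the class under which transposon genes of this annotation are mostly listed, for 607 members (21.7%) and for 60 long-arm clusters (3.92%). It fell in a protein-coding gene for 196 members (7.02%) and for 256 long-arm clusters (16.7%). The remaining members lay between genes (1968) or in non-coding RNA genes (20). Chromosomes 2 and 4 were alike in this, with 22.0% and 21.3% of members in pseudogenes. The pericentromeres of chromosomes 1, 3 and 5 were close to the members. Their clusters had a median distance of 2778 bp, with 20.4% in pseudogenes and 5.63% in protein-coding genes. At the lower bound of chromosome 2 the last cluster outside had a mean of 7.76 RPKM in Col-0 WT and the first inside 67.2 RPKM, and at the upper bound the last inside had 25.2 RPKM and the first outside 364 RPKM. On chromosome 4 the corresponding means were 174 and 64.8 RPKM at the lower bound and 18.3 and 44.6 RPKM at the upper bound.

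The first 300 bases from the named position of 5 members, on the plus strand of the RefSeq assembly TAIR10.1, show how different the sequences behind these clusters are. They are the highest member of each chromosome in Col-0 WT (chr4:5438259-5438558 and chr2:2865159-2865458), the 2 members with the highest level in nrpd1-3 null on their chromosome (chr4:1873241-1873540 in the knob and chr2:3275780-3276079 in the mitochondrial insertion) and the member nearest to the median Col-0 WT level of chromosome 2 (chr2:1806196-1806495). Capitals mark bases covered by a 24-base stretch that occurs more than once in the genome on either strand, so that a 24 nt read from there has more than 1 possible origin.
merged_4_5438259: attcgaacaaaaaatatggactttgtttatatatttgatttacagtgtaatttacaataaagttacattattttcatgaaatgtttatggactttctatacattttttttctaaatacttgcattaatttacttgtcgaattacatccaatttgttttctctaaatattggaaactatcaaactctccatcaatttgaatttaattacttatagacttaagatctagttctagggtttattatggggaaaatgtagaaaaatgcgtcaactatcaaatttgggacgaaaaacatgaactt
merged_2_2865159: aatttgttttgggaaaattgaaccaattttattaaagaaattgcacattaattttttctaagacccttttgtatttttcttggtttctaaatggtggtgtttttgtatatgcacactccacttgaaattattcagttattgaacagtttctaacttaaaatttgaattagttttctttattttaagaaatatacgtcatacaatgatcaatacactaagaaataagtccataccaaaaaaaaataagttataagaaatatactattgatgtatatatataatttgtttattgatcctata
merged_4_1873241: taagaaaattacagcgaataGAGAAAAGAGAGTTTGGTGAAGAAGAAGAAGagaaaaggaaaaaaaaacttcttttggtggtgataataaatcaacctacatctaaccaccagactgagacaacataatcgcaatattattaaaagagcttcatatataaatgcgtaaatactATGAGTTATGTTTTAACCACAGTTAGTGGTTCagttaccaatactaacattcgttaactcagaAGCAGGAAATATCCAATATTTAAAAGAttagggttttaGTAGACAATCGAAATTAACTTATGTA
merged_2_3275780: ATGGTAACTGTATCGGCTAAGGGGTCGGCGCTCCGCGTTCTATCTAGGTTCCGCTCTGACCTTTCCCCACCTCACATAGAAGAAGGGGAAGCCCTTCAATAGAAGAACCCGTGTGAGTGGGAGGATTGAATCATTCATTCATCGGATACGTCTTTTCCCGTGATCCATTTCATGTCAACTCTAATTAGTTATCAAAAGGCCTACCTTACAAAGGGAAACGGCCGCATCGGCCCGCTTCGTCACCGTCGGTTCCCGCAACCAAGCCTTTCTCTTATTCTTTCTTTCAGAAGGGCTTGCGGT
merged_2_1806196: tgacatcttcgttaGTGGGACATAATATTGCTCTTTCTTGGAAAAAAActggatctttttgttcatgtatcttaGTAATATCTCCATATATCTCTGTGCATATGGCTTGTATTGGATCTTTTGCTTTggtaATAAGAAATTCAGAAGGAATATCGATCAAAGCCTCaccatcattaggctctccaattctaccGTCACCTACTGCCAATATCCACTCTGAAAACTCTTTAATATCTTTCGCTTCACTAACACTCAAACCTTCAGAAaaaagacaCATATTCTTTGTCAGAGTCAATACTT
The windows of both highest members had no repeated stretch and a GC content of 25.3% and 23.0%. The knob member had 116 of 300 bases in repeated stretches. All 300 bases of the insertion member were repeated, and every 24-base stretch of it occurs in the mitochondrial genome. The member of median level had 221 bases in repeated stretches.

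Members had a lower siRNA density in Col-0 WT than all clusters together and than the long arms of the same chromosomes. Their median level was 5.98 RPKM in replicate 1 and 5.74 RPKM in replicate 2, against 11.8 and 10.99 RPKM over all clusters and 21.9 and 20.4 RPKM on the long arms of the same chromosomes. Both replicates of these 3 sets kept the order. The 4278 pericentromeric clusters of chromosomes 1, 3 and 5 had medians of 6.03 and 5.72 RPKM, near those of the members. On chromosome 2 the medians were 6.32 and 5.98 RPKM and on chromosome 4 they were 5.71 and 5.39 RPKM, so both replicates of chromosome 2 lay above both of chromosome 4, by less than 1 RPKM. Although 21.6% of all clusters were members (2791 of 12939), they held 14.2% ± 0.0160 of the summed RPKM of a Col-0 WT library (SD, n = 2). Single members ranged from 0.085 to 1034 RPKM. The 28 highest of them, the top 1%, held 21.2% of the summed level of all members.

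Within both pericentromeres the level was lower in the centre than at the flanks. In 10 of the 23 bins of 500000 bp the Col-0 WT median was under 5 RPKM, between 2.00 and 4.38 RPKM. These bins were contiguous on each chromosome, from 2500000 to 5500000 on chromosome 2 and from 3000000 to 5000000 on chromosome 4. In the other 13 bins the median was between 6.22 and 17.0 RPKM, and the highest was the last bin of chromosome 2. The low bins held 1177 members, whose windows had a median GC content of 35.0% to 39.7% per bin and median repeated shares of 22.7% to 56.3% of their 24-base stretches. In the high bins, with 1614 members, these ranges were 30.3% to 33.7% and 3.97% to 32.8%. The largest interval without a member on chromosome 4 ran over 91608 bp from 3176477 to 3268085.

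**Figure D1:**
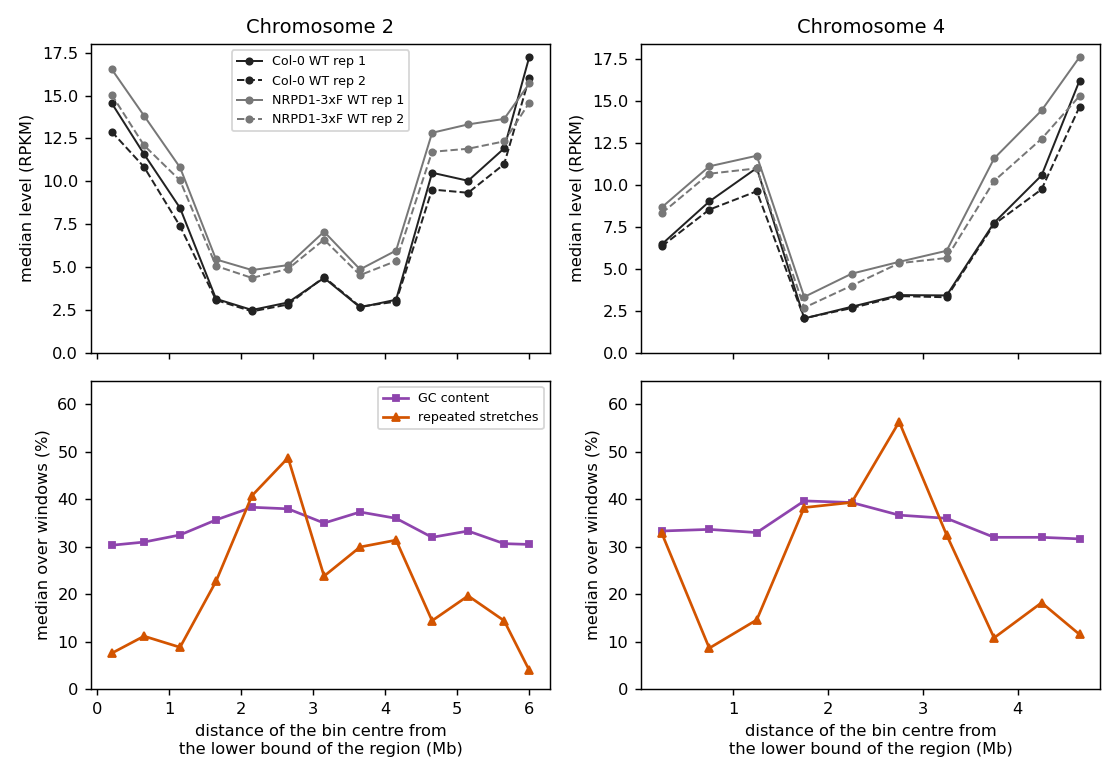
Profiles along the pericentromeres of chromosomes 2 (left) and 4 (right) by bins of 500000 bp, with the distance of the bin centre from the lower bound of the region on the horizontal axis in Mb. The upper panels plot the median level of the members of a bin in RPKM in each library of Col-0 WT (black) and NRPD1-3xF WT (grey), replicate 1 solid and replicate 2 dashed, and the lower panels plot the median GC content and the median share of repeated 24-base stretches of the 300-base windows in percent. Levels dip in the middle of both regions, to Col-0 WT medians between 2.00 and 4.38 RPKM, where GC content and repeated share are higher.

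The same relation appeared without regard to position. Members were split into 10 deciles by their level in Col-0 WT replicate 1 and described by replicate 2. From the lowest to the highest decile the median level went from 1.19 to 62.2 RPKM, while the median GC content of the windows went from 42.7% to 29.3% and the median repeated share from 38.8% to 6.14%. By annotation, the 607 members in pseudogenes had a median Col-0 WT mean of 2.49 RPKM, against 8.31 RPKM for the 1968 between genes and 8.81 RPKM for the 196 in protein-coding genes. Reads with several possible origins were placed by the fractional-seeded mode of the aligner, and the part of this placement in these levels was not tested.

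All 4 mutants lost nearly the whole siRNA signal of both pericentromeres. The summed level over the members was 0.39% and 0.454% of the Col-0 WT mean in the 2 nrpd1-3 null libraries, 0.417% and 0.496% in clsy quad, 1.40% and 1.72% in NRPD1-3xF AAA-YPMF and 0.805% and 0.856% in NRPD1-3xF CYC-AAAA. The nrpd1-3 null and clsy quad ranges overlapped, and both NRPD1-3xF AAA-YPMF libraries lay above all others. Over all clusters the corresponding means were higher, at 6.46%, 4.81%, 5.27% and 7.16%. The members' part of the summed RPKM of a library thus went from 14.2% in Col-0 WT to 0.927% ± 0.0325 in nrpd1-3 null, 1.34% ± 0.174 in clsy quad, 4.18% ± 0.474 in NRPD1-3xF AAA-YPMF and 1.64% ± 0.0411 in NRPD1-3xF CYC-AAAA (SD, n = 2 each). The clusters with the highest levels in nrpd1-3 null lay elsewhere: the highest nrpd1-3 null mean was 29.7 RPKM among members and 15700 RPKM over all clusters. The median member kept 0%, 0.2125%, 2.346% and 0.8107% of its Col-0 WT mean in the 4 mutants in the same order. Over all clusters these medians were 0.09895%, 0.2558%, 1.585% and 0.5972%. In the pericentromeres of chromosomes 1, 3 and 5 they were 0%, 0.2255%, 2.148% and 0.7502%, near those of the members. By this measure both pericentromeric sets kept more than all clusters in both motif variants, unlike by the sums. The sums of the other pericentromeres were 0.759%, 0.476%, 1.82% and 1.15% of Col-0 WT. With 2 libraries against 2 an exact permutation test cannot give a two-sided p below 0.333, so such sums were not tested. In flower tissue, fewer cells that make siRNAs and less siRNA per cell cannot be told apart.

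Single clusters were tested with limma on log2(RPKM + 1) over all 12939 clusters, and called at a change of 2-fold or more and a Benjamini-Hochberg adjusted p under 0.01. In nrpd1-3 null 2694 of 2791 members (96.5%) were called lower than in Col-0 WT, with 97.8% of all clusters called lower. In clsy quad it was 2692 members (96.5%; background 97.9%), in NRPD1-3xF AAA-YPMF 2665 (95.5%; background 97.3%) and in NRPD1-3xF CYC-AAAA 2690 (96.4%; background 97.8%). The members' shares were thus near the background, and slightly under it. Both tagged variants were compared here with untagged Col-0 WT. With NRPD1-3xF WT as the reference, 2774 members were called lower in NRPD1-3xF AAA-YPMF, a setting for which no share of all clusters is given. Of the 96 members not called in nrpd1-3 null, 79 had a Col-0 WT mean under 1 RPKM, at which a fold change of 2 on this scale cannot be reached. The median log2 fold change over the members was -2.72, -2.73, -2.51 and -2.65 in the 4 mutants in that order, against -3.53, -3.53, -3.31 and -3.45 over all clusters, on a scale that understates the change of low clusters. By chromosome it was -2.77 (chromosome 2) and -2.65 (chromosome 4) in nrpd1-3 null, and -2.56 and -2.46 in NRPD1-3xF AAA-YPMF. The pericentromeres of chromosomes 1, 3 and 5 had medians of -2.73, -2.73, -2.52 and -2.65 in the 4 mutants, near those of the members. These p-values measure only the spread between 2 replicates per genotype, which limma draws toward that of clusters with a similar level. A p-value thus does not rest on the values of its own cluster alone.

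**Figure D2:**
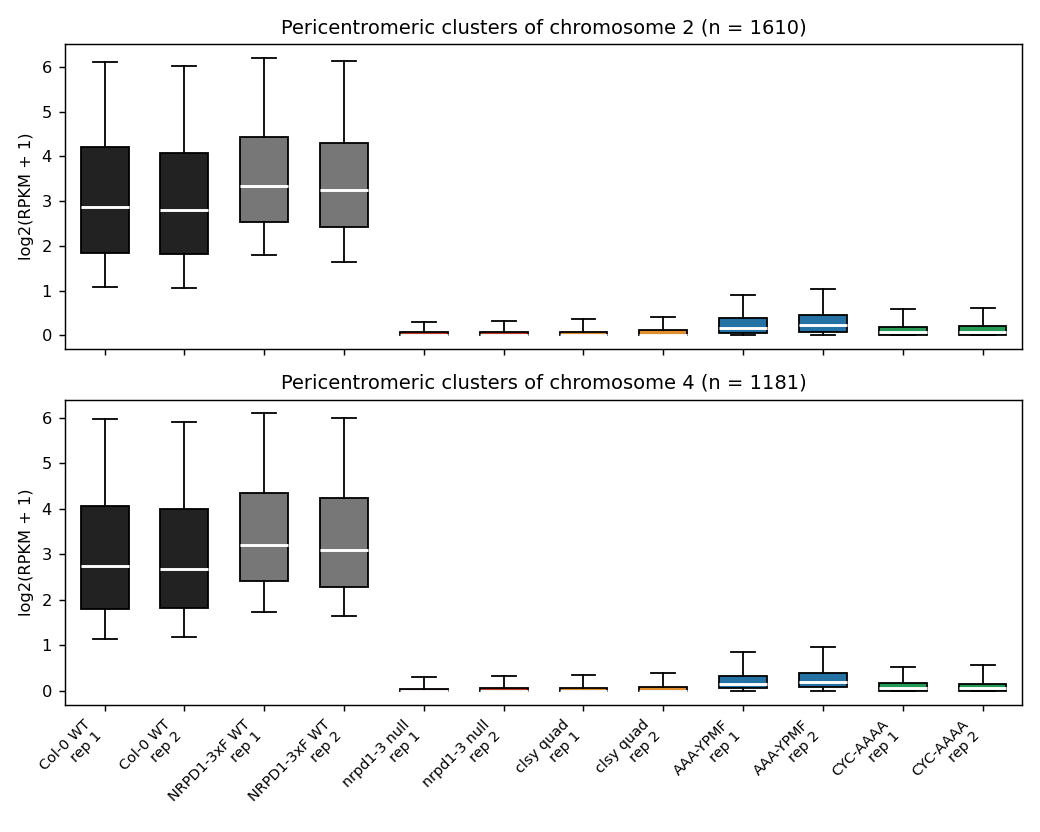
Levels of the members of chromosome 2 (upper panel) and chromosome 4 (lower panel) in each of the 12 libraries, as log2(RPKM + 1) on the vertical axis. Boxes span the quartiles, white lines are medians and whiskers reach the percentiles 5 and 95. The 4 libraries of Col-0 WT and NRPD1-3xF WT have medians between 5.39 and 9.08 RPKM, and the 8 mutant libraries have medians of 0.18 RPKM or less, with NRPD1-3xF AAA-YPMF highest among them.

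The listed values of what remained differed among the mutants. Counts of 0 and medians near 0 depend also on sequencing depth, which was not taken into account here. In nrpd1-3 null 1868 and 1710 members were listed at 0 in its libraries, against 1624 and 1400 in clsy quad, and in NRPD1-3xF CYC-AAAA 984 and 965 and in NRPD1-3xF AAA-YPMF 503 and 412. Median levels were 0 in each library of nrpd1-3 null and clsy quad, 0.05 RPKM in both NRPD1-3xF CYC-AAAA libraries and 0.12 and 0.16 RPKM in those of NRPD1-3xF AAA-YPMF. The order of the genotypes was the same on both chromosomes. Both libraries were under 1 RPKM for 2772 members in nrpd1-3 null, 2768 in clsy quad, 2734 in NRPD1-3xF CYC-AAAA and 2630 in NRPD1-3xF AAA-YPMF. Of the 118 members with a mean of at least 1 RPKM in NRPD1-3xF AAA-YPMF, 63 (53.4%) belonged to the highest decile of Col-0 WT replicate 1.

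In the 4 comparisons made between mutants no member was called at the 2-fold limit, and the motif variants were not compared with clsy quad. NRPD1-3xF AAA-YPMF against NRPD1-3xF CYC-AAAA had 0 members called in either direction (background 0.0%), with 573 members higher and 29 lower at an unadjusted p under 0.05 (20.5% and 1.04%, against 19.4% and 1.14% of all clusters). Both libraries of NRPD1-3xF AAA-YPMF were above both of NRPD1-3xF CYC-AAAA for 1275 members (45.7%, background 43.0%) and below them for 89 (3.19%, background 3.8%). When all 12 libraries shared one estimate of the spread, 9 members were called higher in NRPD1-3xF AAA-YPMF, and when clusters averaging under 1 RPKM were left out of the test, 8 were called higher and 1 lower. For these settings no share of all clusters is given, so the counts are not a result particular to the members. In the main limma fit the smallest adjusted p among members was 0.0869, and the median log2 difference was 0.10.

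Against nrpd1-3 null, NRPD1-3xF AAA-YPMF also had 0 members called (background 0.0%), but 1169 members (41.9%) were higher at an unadjusted p under 0.05, against 36.2% of all clusters, and 8 were lower (0.287%, background 0.479%). Both of its libraries were above both of nrpd1-3 null at 1782 members (63.8%, background 57.0%) and below them at 22 (0.788%, background 1.91%). With one estimate of the spread over all 12 libraries 69 members were called higher and 1 lower, and 50 were called higher at an adjusted p under 0.05. No share of all clusters is given for the alternative settings, here and in the next sentences. Such counts are therefore not a result particular to the members. Without NRPD1-3xF AAA-YPMF replicate 1 or 2, 32 or 24 members were called. NRPD1-3xF CYC-AAAA against nrpd1-3 null had 0 calls (background 0.0%), 472 members higher and 14 lower at an unadjusted p under 0.05 (16.9% and 0.502%, against 12.2% and 0.904% of all clusters), and 3 or 4 calls without its replicate 1 or 2. Its libraries were above both of nrpd1-3 null at 970 members (34.8%, background 27.7%) and below at 62 (2.22%, background 4.27%). Clsy quad against nrpd1-3 null had 0 calls (background 0.0%), 92 members higher and 28 lower at an unadjusted p under 0.05 (3.30% and 1.00%, against 3.93% and 1.41%), and 1 call in each direction with the filter at 1 RPKM. Both its libraries were above both of nrpd1-3 null at 317 members (11.4%, background 13.3%) and below at 166 (5.95%, background 6.7%). In the pericentromeres of chromosomes 1, 3 and 5 the shares higher than nrpd1-3 null at an unadjusted p under 0.05 were of similar size. They were 41.8% in NRPD1-3xF AAA-YPMF, 14.8% in NRPD1-3xF CYC-AAAA and 4.07% in clsy quad. These comparisons share libraries with one another and are given side by side only.

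The share of the wild-type signal that was left differed with the level of the member. In NRPD1-3xF AAA-YPMF the median member of the lowest decile had 3.85% of its Col-0 WT replicate 2 level left and that of the highest decile 0.642%. In NRPD1-3xF CYC-AAAA these medians were 1.05% and 0.183%, with the highest value in decile 3. In nrpd1-3 null and clsy quad the median member of the lowest decile was listed at 0, and no decile had a median above 0.387%. A level of 0.05 RPKM is close to the 2 decimals at which the values were deposited, so the low deciles rest on few reads.

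**Figure D3:**
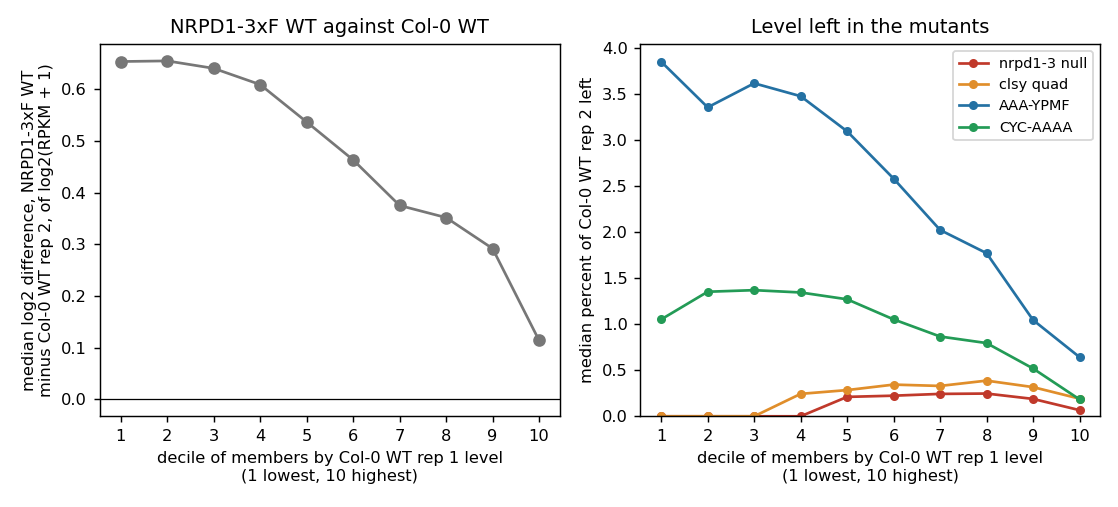
Members split into deciles by their level in Col-0 WT replicate 1 (horizontal axis, 1 lowest and 10 highest), with values relative to replicate 2. The left panel plots the median difference of log2(RPKM + 1) between the mean of the NRPD1-3xF WT libraries and Col-0 WT replicate 2, which goes from 0.65 to 0.11. The right panel plots the median percent of the Col-0 WT replicate 2 level left in each mutant, which in NRPD1-3xF AAA-YPMF goes from 3.85% to 0.642%.

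The highest members illustrate both the loss and its remainder. Cluster merged_4_5438259, in an intron of the protein-coding gene AT4G08545, had 1070 and 996.8 RPKM in Col-0 WT, 367 and 344 in NRPD1-3xF WT, 0.1 and 0.1 in nrpd1-3 null, 2.19 and 1.88 in clsy quad, 4.11 and 2.82 in NRPD1-3xF AAA-YPMF and 0.28 and 0.16 in NRPD1-3xF CYC-AAAA. No 2 genotypes overlapped, and each mutant was called lower than Col-0 WT, from a log2 fold change of -9.88 ± 0.07 (SE) in nrpd1-3 null to -7.87 ± 0.18 in NRPD1-3xF AAA-YPMF (limma adjusted p of 4.86e-06 and 2.04e-06). Cluster merged_2_2865159, the highest of chromosome 2, lies 1725 bp from the pseudogene AT2G06950 and had 886 and 779.5 RPKM in Col-0 WT, 0.07 and 0.15 in nrpd1-3 null, 1.39 and 1.79 in clsy quad, 3.45 and 2.63 in NRPD1-3xF AAA-YPMF and 0.35 and 0.22 in NRPD1-3xF CYC-AAAA. The order of the 4 mutants was that of merged_4_5438259. In both clusters clsy quad was above nrpd1-3 null, by 1.46 ± 0.10 and 1.22 ± 0.13 on the log2 scale, a difference that did not pass the adjusted threshold (limma adjusted p = 0.106 and 0.282).

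Cluster merged_2_1206413, 164 bp from the protein-coding gene AT2G03930, had the highest NRPD1-3xF AAA-YPMF level among the 8 highest Col-0 WT members, 4 of each chromosome. It had 379.9 and 379.6 RPKM in Col-0 WT, 496 and 449 in NRPD1-3xF WT, 0.11 and 0.09 in nrpd1-3 null, 0.38 and 0.68 in clsy quad, 6.11 and 5.92 in NRPD1-3xF AAA-YPMF and 1.32 and 1.17 in NRPD1-3xF CYC-AAAA. Its level in NRPD1-3xF AAA-YPMF was 1.58% of Col-0 WT, and its log2 difference from NRPD1-3xF CYC-AAAA was 1.64 ± 0.08 (limma adjusted p = 0.0869, and called with one estimate of the spread over all 12 libraries). Other high members kept less. Cluster merged_4_6275832, 1116 bp from CYTC-2, a gene for cytochrome c of the respiratory chain, had 849.5 and 734 RPKM in Col-0 WT and between 0.1 and 1.51 RPKM in the 8 mutant libraries. Cluster merged_4_2520873, 811 bp from GRXS17, a monothiol glutaredoxin gene, had 437 and 439.5 RPKM in Col-0 WT and between 0.23 and 1.54 RPKM in the mutants. At the median of the distribution, merged_2_1806196 in the pseudogene AT2G05080 had 5.57 and 6.7 RPKM in Col-0 WT and between 0 and 0.05 RPKM in the mutants, and merged_4_4038286 in the pseudogene AT4G06734 had 5.4 and 5.82 RPKM and between 0 and 0.08 RPKM.

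Few members kept a sizeable part of their signal in the mutants. At least 10% of the Col-0 WT mean was left at 25 members in nrpd1-3 null (0.896%, against 1.21% of all clusters), 28 in clsy quad (1.00%, against 0.966%), 126 in NRPD1-3xF AAA-YPMF (4.51%, against 3.25%) and 38 in NRPD1-3xF CYC-AAAA (1.36%, against 1.41%). In the pericentromeres of chromosomes 1, 3 and 5 these shares were 0.865%, 0.514%, 3.86% and 1.17%. At least 50% was left at 6, 6, 3 and 5 of the 2791 members, and at 37, 33, 30 and 37 of the 12939 clusters. One member, merged_4_1873241, was called higher than Col-0 WT, and it was so in each mutant. This is 0.0358% of members, against backgrounds of 0.0927% (nrpd1-3 null), 0.085% (clsy quad), 0.085% (NRPD1-3xF AAA-YPMF) and 0.108% (NRPD1-3xF CYC-AAAA). The comparisons share the same Col-0 WT libraries. RPKM are scaled to library size. At any member, a rise in a mutant and a fall of the rest of its library therefore cannot be told apart here.

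Cluster merged_4_1873241 lies in the knob, 383 bp from the protein-coding gene AT4G03940. It had 10.8 and 9.83 RPKM in Col-0 WT, 12.9 and 9.88 in NRPD1-3xF WT, 25.1 and 34.4 in nrpd1-3 null, 21.9 and 23.7 in clsy quad, 21.3 and 27.0 in NRPD1-3xF AAA-YPMF and 37.8 and 32.5 in NRPD1-3xF CYC-AAAA. Every library of the 4 mutants was above every library of Col-0 WT and NRPD1-3xF WT. The log2 fold change against Col-0 WT was 1.42 ± 0.18 in nrpd1-3 null, 1.07 ± 0.11 in clsy quad, 1.14 ± 0.16 in NRPD1-3xF AAA-YPMF and 1.67 ± 0.11 in NRPD1-3xF CYC-AAAA (limma adjusted p of 0.00237, 0.000634, 0.00104 and 0.000105). Without Col-0 WT replicate 1 the call was lost in each comparison, at adjusted p between 0.0261 and 0.0947, and likewise without replicate 2, at 0.0288 to 0.106, with fold changes of at least 1.01 on the log2 scale. Without NRPD1-3xF AAA-YPMF replicate 2 the log2 fold change of that mutant was 0.98, under the limit. The neighbouring cluster merged_4_1870518, in an exon of AT4G03930, had 3.65 and 3.68 RPKM in Col-0 WT and 1.96 and 3.56 in nrpd1-3 null, ranges that did not overlap, and it was called in none of the mutants.

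Cluster merged_2_6777734 lies in an exon of MBR1, a RING-type ubiquitin ligase gene known for a role in flowering time. It had 6.76 and 4.48 RPKM in Col-0 WT, 6.78 and 5.12 in NRPD1-3xF WT, 17.0 and 11.7 in nrpd1-3 null, 4.09 and 6.56 in clsy quad, 4.95 and 1.58 in NRPD1-3xF AAA-YPMF and 8.91 and 11.8 in NRPD1-3xF CYC-AAAA. Only nrpd1-3 null and NRPD1-3xF CYC-AAAA were above Col-0 WT without overlap, and neither was called (log2 fold change 1.21 ± 0.27 and 0.79 ± 0.23, limma adjusted p = 0.0147 and 0.0248). Cluster merged_4_2183565, 494 bp from the transcribed pseudogene AT4G04408, fell in each mutant but kept 29.3% to 44.0% of its level. It had 25.8 and 23.1 RPKM in Col-0 WT, 9.94 and 11.6 in nrpd1-3 null, 7.36 and 6.99 in clsy quad, 6.96 and 7.47 in NRPD1-3xF AAA-YPMF and 9.79 and 10.9 in NRPD1-3xF CYC-AAAA. The 8 mutant libraries lay far below both of Col-0 WT, with log2 fold changes between -1.64 and -1.12.

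**Figure D4:**
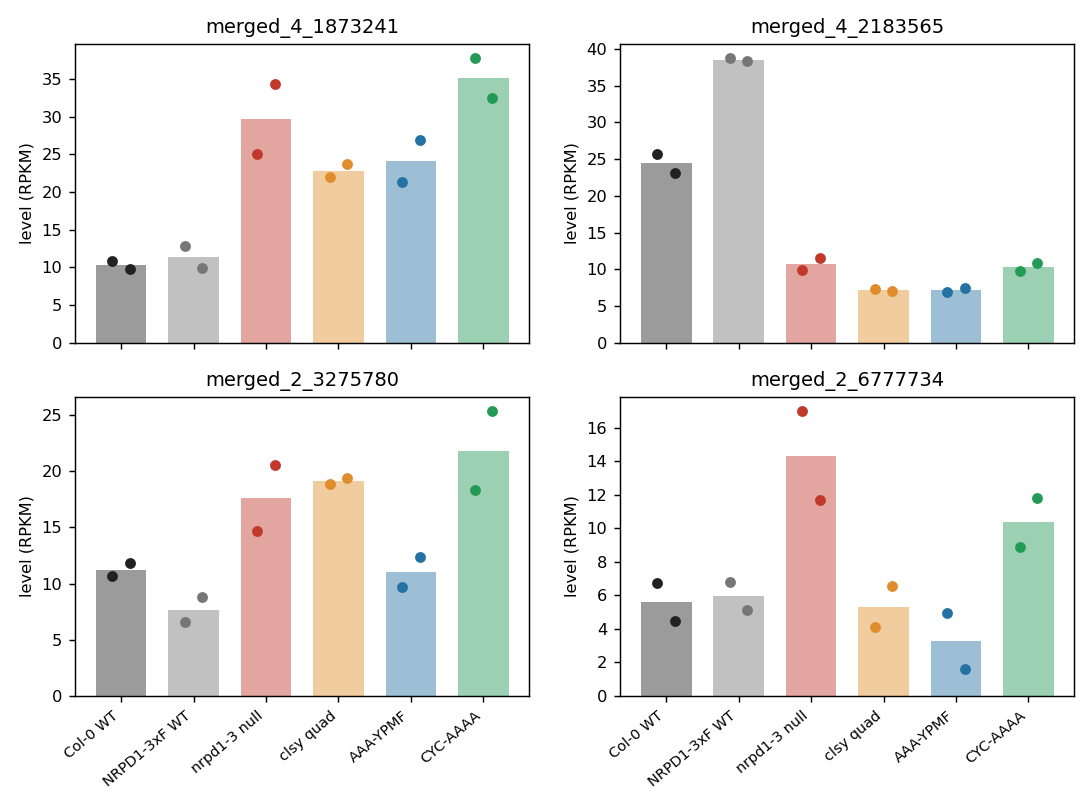
Level in RPKM (vertical axis) of the 4 members highest in nrpd1-3 null, 2 on each chromosome, in the 6 genotypes. Points are the 2 libraries and bars their mean. Cluster merged_4_1873241 has 9.83 to 12.9 RPKM in the libraries of Col-0 WT and NRPD1-3xF WT and 21.3 to 37.8 RPKM in the mutants, and merged_4_2183565 falls from 23.1 RPKM or more to 11.6 RPKM or less.

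The mitochondrial insertion of chromosome 2 stood apart from the rest of the region. In 26 members, between 3242329 and 3509252, at least 50% of the 24-base stretches of the window occur in the mitochondrial genome. Their median level was 0.915 and 0.935 RPKM in Col-0 WT, 2.40 and 1.96 RPKM in NRPD1-3xF WT and 0.085 and 0.125 RPKM in nrpd1-3 null. The 37 clusters of the table that lie on the mitochondrial genome itself had 0.99 and 1.07 RPKM in Col-0 WT, 2.82 and 2.52 in NRPD1-3xF WT and 0.09 and 0.11 in nrpd1-3 null, so the levels of the insertion members and of the mitochondrial clusters were close in these 3 genotypes. Reads of the insertion and of the mitochondrion cannot be told apart here. At least 10% of Col-0 WT was left at 13 of the 26 in nrpd1-3 null, 15 in clsy quad, 16 in NRPD1-3xF AAA-YPMF and 16 in NRPD1-3xF CYC-AAAA, and 24 of the 26 had both NRPD1-3xF WT libraries above both of Col-0 WT (92.3%, background 66.6%). In nrpd1-3 null 6 of the 26 (23.1%) were called lower, against 97.8% of all clusters, and 12 had a Col-0 WT mean of at least 1 RPKM, below which a fold change of 2 on this scale cannot be reached.

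Cluster merged_2_3275780 made up most of the summed signal that was left in the insertion. It lies 212 bp from the non-coding RNA gene AT2G05165 and had 10.6 and 11.8 RPKM in Col-0 WT, 6.53 and 8.83 in NRPD1-3xF WT, 14.7 and 20.6 in nrpd1-3 null, 18.9 and 19.4 in clsy quad, 9.71 and 12.4 in NRPD1-3xF AAA-YPMF and 18.3 and 25.3 in NRPD1-3xF CYC-AAAA. All mutants except NRPD1-3xF AAA-YPMF lay above Col-0 WT, by log2 fold changes of 0.59 ± 0.19, 0.72 ± 0.10 and 0.88 ± 0.18, under the 2-fold limit. Without the 26 members, the summed level of the other 2765 was 0.378% of Col-0 WT in nrpd1-3 null and 1.53% in NRPD1-3xF AAA-YPMF.

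The knob of chromosome 4, between 1600000 and 2300000, held 193 members, all with a Col-0 WT mean of at least 1.07 RPKM. Their median was 4.91 and 4.78 RPKM in Col-0 WT and 7.37 and 6.83 RPKM in NRPD1-3xF WT. In nrpd1-3 null 191 of them (99.0%) were called lower, against 97.8% of all clusters. The summed level left was 2.36% ± 0.431 in nrpd1-3 null, 1.85% ± 0.0663 in clsy quad, 3.44% ± 0.520 in NRPD1-3xF AAA-YPMF and 3.18% ± 0.0941 in NRPD1-3xF CYC-AAAA (SD, n = 2), above the values of the whole set. Most of this remainder in nrpd1-3 null came from merged_4_1873241 and merged_4_2183565. Without these 2, left out after their values were seen, the other 191 knob members had 0.470% ± 0.0687, 0.453% ± 0.0199, 2.00% ± 0.320 and 1.06% ± 0.0451 left in the same order. All members had 0.422%, 0.456%, 1.56% and 0.831% left. That set still includes these 2 and was not trimmed in the same way, so the sets are not alike. The 2598 members outside the knob had 0.336%, 0.395%, 1.48% and 0.727% left.

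With the tagged wild-type transgene the summed signal of the region was near that of Col-0 WT, with shifts at many members. The summed level was 110% and 101% of the Col-0 WT mean in the 2 NRPD1-3xF WT libraries, and the median level was 8.82 and 8.06 RPKM, above both Col-0 WT medians. Over all clusters the sum was 92.0% ± 5.53 and on the long arms of chromosomes 2 and 4 it was 80.9% ± 4.88 (SD, n = 2). The pericentromeres of chromosomes 1, 3 and 5 had 112% ± 6.73. The median log2 fold change was 0.48 over the members (0.49 on chromosome 2 and 0.47 on chromosome 4), 0.50 in the other pericentromeres, 0.15 on the long arms and 0.35 over all clusters. Relative to this shift of all clusters the members were at 0.13, the other pericentromeres at 0.15 and the long arms at -0.20. Both NRPD1-3xF WT libraries were above both of Col-0 WT at 2196 members (78.7%, background 66.6%) and below at 269 (9.64%, background 18.5%). At an unadjusted p under 0.05, 1945 members (69.7%, background 57.8%) were higher and 211 (7.56%, background 15.6%) were lower.

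At the 2-fold limit 181 members (6.49%) were called higher in NRPD1-3xF WT than in Col-0 WT, with 5.46% of all clusters called higher, and 82 (2.94%) were called lower, with 7.76% of all clusters called lower. When both genotypes were given the same median over all clusters, 78 members (2.79%) were called higher and 97 (3.48%) lower, against 2.84% and 8.92% of all clusters. The share of higher calls among the members' calls was thus 68.8% with the deposited scaling and 44.6% with equal medians, against 41.3% and 24.2% for all clusters. With a pseudocount of 0.1 in place of 1, 447 members were called higher. No share of all clusters is given for that setting, so this count is not a result particular to the members. By chromosome, with the pseudocount of 1, 125 members (7.76%) were called higher and 50 (3.11%) lower on chromosome 2. On chromosome 4 it was 56 (4.74%) and 32 (2.71%).

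Lower calls were mostly in the outer bins, while higher calls were made in both kinds of bin, a difference that was not tested. In the 10 central bins with a low Col-0 WT median 105 of 1177 members (8.92%) were called higher and 8 (0.680%) lower, and the summed level was 0.945 to 1.56 times that of Col-0 WT per bin. In the 13 outer bins 76 of 1614 members (4.71%) were called higher and 74 (4.58%) lower, with sums of 0.757 to 1.34 times. By deciles of the Col-0 WT level the median log2 difference went from 0.65 in the lowest decile to 0.11 in the highest. In the highest decile 46 of 279 members (16.5%) were called lower and 3 higher, and in the lowest none of 280 was called lower and 31 (11.1%) were called higher. The calls use Col-0 WT replicate 1, which also set the deciles, so these counts are a description. Lower calls were also limited by the scale, on which a member under 1 RPKM in Col-0 WT cannot fall 2-fold. The lowest decile had a median of 1.19 RPKM in replicate 2, and at that level a lower call needs a nearly complete loss. The same limit bears, less strongly, on the central bins. Its part in the few lower calls of low deciles and central bins was not tested.

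**Figure D5:**
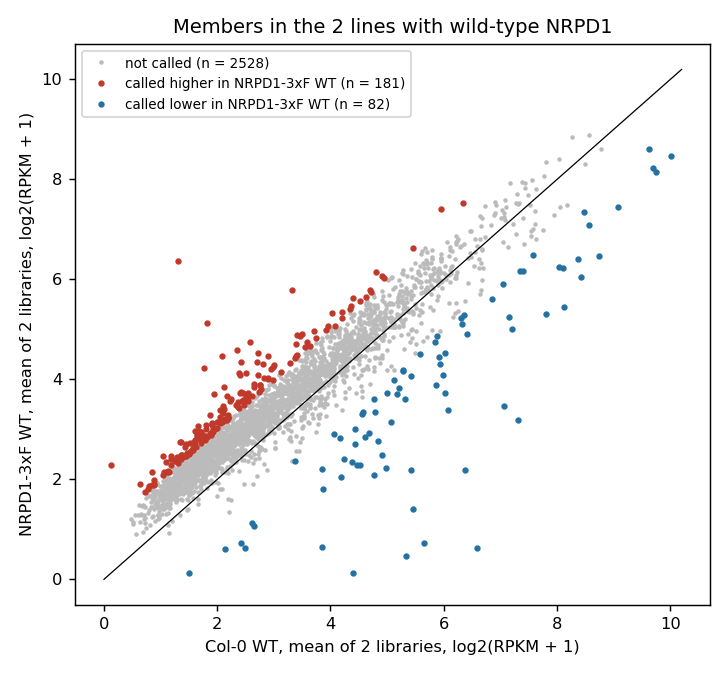
Level of each of the 2791 members in NRPD1-3xF WT (vertical axis) against Col-0 WT (horizontal axis), both as log2(RPKM + 1) of the mean of 2 libraries, with the line of equal levels. Most points lie above the line at low levels, the 181 members called higher (red) form the upper edge of the cloud, and the 82 called lower (blue) include the highest members and a few that are nearly absent from NRPD1-3xF WT.

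Several of the highest members fell in NRPD1-3xF WT. Cluster merged_2_1926502, in an exon of the pseudogene AT2G05290, had 451 and 399 RPKM in Col-0 WT and 95.6 and 80.0 RPKM in NRPD1-3xF WT. Clusters merged_4_5438259, merged_4_2558980, merged_2_2865159 and merged_2_5660559 had between 32.1% and 35.9% of their Col-0 WT mean. Their log2 fold changes were between -1.63 and -1.48 (limma adjusted p between 6.57e-14 and 1.67e-12), and the pairs of libraries did not overlap. Cluster merged_4_6275832 was just past the limit, at -1.02 ± 0.07, and was not called with one estimate of the spread over all 12 libraries.

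A few members were nearly absent from the tagged line. Of the 1028 members with a Col-0 WT mean of at least 10 RPKM, 5 (0.486%) were under 1 RPKM in both NRPD1-3xF WT libraries, against 112 of 6937 (1.61%) over all clusters and 25 of 1177 (2.12%) on the long arms. Cluster merged_2_6915027, 213 bp from the long non-coding RNA gene AT2G06505, had 94.6 and 96.2 RPKM in Col-0 WT and 0.38 and 0.69 RPKM in NRPD1-3xF WT, and between 0 and 0.14 RPKM in the mutants. Cluster merged_2_2349667, in an intron of AT2G06025, had 52.2 and 46.4 RPKM in Col-0 WT and 0.35 and 0.98 RPKM in NRPD1-3xF WT. Clusters merged_2_6015601 (37.1 and 41.1 against 0.51 and 0.25 RPKM) and merged_4_2036325 in the knob (21.4 and 18.6 against 0.17 and 0 RPKM) were lost in the same manner. Log2 fold changes of these 4 ranged from -5.98 ± 0.14 to -4.27 ± 0.14 (limma adjusted p between 2.62e-17 and 6.90e-15). The remaining one, merged_4_5733735, named after its values were seen, had 13.1 and 13.8 RPKM in Col-0 WT and 0.44 and 0.69 RPKM in NRPD1-3xF WT.

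The opposite was also seen, though no member went from under 1 RPKM in both Col-0 WT libraries to 10 RPKM or more. Cluster merged_2_1521427, 304 bp from the protein-coding gene AT2G04360, had 1.53 and 1.39 RPKM in Col-0 WT and 86.8 and 76.5 RPKM in NRPD1-3xF WT (log2 fold change 5.07 ± 0.13). It had between 0 and 0.6 RPKM in the mutants. Cluster merged_2_1469142, 158 bp from the transcribed pseudogene AT2G04250, had 2.13 and 2.92 RPKM against 33.5 and 34.5 RPKM (3.32 ± 0.14). On chromosome 4, merged_4_5802399 in an intron of AT4G09070 had 10.05 and 7.88 RPKM against 56.8 and 51.6 RPKM (2.48 ± 0.13), and merged_4_5124352 in the transcribed pseudogene AT4G08136 had 2.49 and 2.35 RPKM against 18.3 and 17.3 RPKM (2.46 ± 0.13). In all 4 the libraries of the genotypes lay far apart, with limma adjusted p between 1.00e-16 and 8.11e-12, and in the mutants none reached 1 RPKM.

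Some members had higher values in NRPD1-3xF CYC-AAAA than in NRPD1-3xF AAA-YPMF. Cluster merged_2_6545941, 1316 bp from the long non-coding RNA gene AT2G06365, had 0.65 and 0.84 RPKM in NRPD1-3xF CYC-AAAA and between 0.05 and 0.17 RPKM in the other 6 mutant libraries. Cluster merged_4_2232400, in an intron of CRK36, a cysteine-rich receptor-like kinase gene, had 0.42 and 0.6 RPKM in NRPD1-3xF CYC-AAAA, 0 and 0.46 RPKM in nrpd1-3 null and was listed at 0 in clsy quad and NRPD1-3xF AAA-YPMF. Neither difference was called (limma adjusted p = 0.158 for both). Cluster merged_4_2960670, in an exon of AT4G05612, had 0.73 and 0.88 RPKM in nrpd1-3 null and was listed at 0 in both clsy quad libraries, with 1.24 and 0.95 RPKM in NRPD1-3xF AAA-YPMF (clsy quad against nrpd1-3 null, limma adjusted p = 0.305).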

How the data were processed

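Small RNA libraries were made from flower total RNA, 2 per genotype. The authors trimmed reads with cutadapt 1.18 (reads under 15 nt removed) and mapped them to TAIR10 with ShortStack at 1 mismatch. Reads of several origins were placed by its fractional-seeded mode. Perfect matches or single mismatches at the 3′ end were kept with bamtools. The 24 nt reads were taken, and HOMER 4.10 wrote the deposited values as RPKM at 2 decimals, for clusters that earlier work had identified. The library kit adds molecular identifiers, and the methods do not state that they were used. Read totals were not used, so depth was not taken into account and no counting interval is given. In the ratios of low values, 1 read was worth more in replicate 1 of nrpd1-3 null and clsy quad (most frequent log2 ratio 0.33 in both). The table holds no cluster lengths. The position in a cluster name was taken as its start, and cluster ends were not used.

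From these values, log2(RPKM + 1) was tested with limma 3.58.1 in R 4.3.3 (lmFit, and eBayes with trend) on the 4 libraries of each of 9 comparisons, with Benjamini-Hochberg adjustment over all 12939 clusters, and called where the adjusted p was under 0.01 and the log2 fold change was 1 or more in size. The authors tested counts with DESeq2, which RPKM do not allow. Clusters at 0 in all libraries compared have no variance, which limma offsets from 0. The script was tested on simulated data. Clusters were named by rule: the 4 highest and the median member of each chromosome in Col-0 WT, the 2 highest of each chromosome in each mutant, members called higher than Col-0 WT, the 4 largest calls in each direction in NRPD1-3xF WT, and the largest differences at an unadjusted p under 0.05 between the variants (4 each way) and between clsy quad and nrpd1-3 null (2 each way). The region, the comparison sets and these lists were chosen with earlier results of these data known. Windows of 300 bases, their GC content, 24-base stretches and annotation come from RefSeq TAIR10.1, whose nuclear chromosomes are the sequence of TAIR10, while its mitochondrial sequence differs. Alternatives were another pseudocount, a filter at 1 RPKM, a replicate block, one fit over all 12 libraries, eBayes without trend, an adjusted p under 0.05, bounds moved inward by 500000 bp, equal medians, NRPD1-3xF WT as the reference, and leaving out each library.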

Additional observations from a re-analysis of the deposited data

How the results depend on the processing

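The counts of members called lower than Col-0 WT kept within 1.5 times under every alternative tried, and without 1 library at a time they ranged from 2292 to 2697 (nrpd1-3 null), 2413 to 2698 (clsy quad), 2091 to 2667 (NRPD1-3xF AAA-YPMF) and 2090 to 2692 (NRPD1-3xF CYC-AAAA). The count of 1 member called higher ranged from 0 to 2 in nrpd1-3 null and NRPD1-3xF CYC-AAAA and from 0 to 1 in clsy quad and NRPD1-3xF AAA-YPMF when 1 library was left out. It was 0 in each mutant with bounds moved inward, which put merged_4_1873241 outside, and 2 in nrpd1-3 null with one fit over all 12 libraries or an adjusted p under 0.05 and in NRPD1-3xF CYC-AAAA against NRPD1-3xF WT. For NRPD1-3xF WT against Col-0 WT, 447 members were called higher with a pseudocount of 0.1 and 78 with equal medians, and 47 were called lower with bounds moved inward. Between mutants, the filter at 1 RPKM gave 8 members higher and 1 lower (AAA-YPMF against CYC-AAAA), 1 and 1 (clsy quad against nrpd1-3 null), 33 higher (AAA-YPMF against nrpd1-3 null) and 1 higher (CYC-AAAA against nrpd1-3 null). One fit over all libraries gave 9 higher, 69 higher and 1 lower, and 3 higher, for AAA-YPMF against CYC-AAAA, AAA-YPMF against nrpd1-3 null and CYC-AAAA against nrpd1-3 null. An adjusted p under 0.05 gave 50 and 1 higher for the last 2 comparisons, and leaving out 1 library gave 0 to 32 and 0 to 4. Apart from equal medians, no share of all clusters is given for these settings, so the counts are not particular to the members. The replicate block gave 2 members called higher in nrpd1-3 null. Its other counts were within 5 of those reported, such as 2699 lower in nrpd1-3 null. Correlations of the replicate differences between genotypes were within -0.035 to 0.063. Such correlations do not register a shift common to all clusters. They cannot decide whether replicates of the same number share a batch.

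As a median over members in place of the sum, the level left was 144% in NRPD1-3xF WT, 0% in nrpd1-3 null and clsy quad and 2.39% in NRPD1-3xF AAA-YPMF. Without the 1% of members with the highest mean the sums were 115%, 0.52%, 0.528%, 1.82% and 1.01% (NRPD1-3xF WT, nrpd1-3 null, clsy quad, AAA-YPMF and CYC-AAAA). The median log2 fold changes of the 4 mutants were -5.51, -5.53, -4.48 and -5.06 with a pseudocount of 0.1, -3.13, -3.13, -2.85 and -3.0 with the filter, and -2.50, -2.52, -2.32 and -2.44 with bounds moved inward, and without 1 library they ranged from -2.75 to -2.69, -2.76 to -2.70, -2.55 to -2.48 and -2.67 to -2.62. The pseudocount sets these values, since most members are near 0 in the mutants. Of the named clusters' tests, 221 of 234 kept their call with one fit over all libraries, 231 with a pseudocount of 0.1 and 233 with the block. Depth limits what can be said of levels under 1 RPKM, and with 2 libraries per genotype a missing call does not show equal levels.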
